A study of Mus musculus with 16 samples.

Results

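The genes described here are 9 mouse genes of the tripartite motif (TRIM) family that are linked to interferon: Trim30a, Trim30b, Trim30c, Trim30d, Trim12a, Trim12c, Trim34a, Trim21 and Trim25. They were chosen by name, as the records of the count table with these symbols, and are 9 of its 55573 gene records. The choice was made with earlier results of these data known. All 9 symbols were found, each in 1 record. The other TRIM genes of the table, 59 in number, serve as the nearest comparison.

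The study sequenced RNA of RAW264.7 cells, an established mouse macrophage-like line, in 16 libraries that form 4 groups of 4. The 3 knockdown (KD) groups are labelled ORP5/8 KD, ATP11A/C KD or CDC50A KD, and they are set against Parental. ORP5 and ORP8, products of Osbpl5 and Osbpl8, bring phosphatidylserine to the plasma membrane as lipid transfer proteins, ATP11A is a flippase that moves phosphatidylserine to the cytoplasmic leaflet, and CDC50A (gene Tmem30a) is the partner subunit of most such flippases. Cells of all groups were taken on the day after plating, and the labels name neither a phagocytic cargo nor an interferon or other stimulus. Each KD library is named with the prefix "sh", which is not spelled out, and Parental names no construct. A non-targeting control library was not analysed here. The labels do not say how the KD cells were derived, or whether the replicates came from separate cultures. The p-values therefore rest on the variation among these libraries, which may be technical.

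TRIM proteins carry a RING domain, which gives most of them ubiquitin ligase activity, then B-box and coiled-coil domains, and in many of them a C-terminal SPRY (B30.2) domain that binds the target. Many TRIM genes are transcribed in response to type I interferon, which acts through the receptor IFNAR and a transcription factor complex with STAT2 and IRF9 that binds interferon-stimulated response elements in promoters. In macrophages, TRIM proteins act as viral restriction factors and as positive or negative regulators of the sensors that lead to interferon and NF-κB.

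All 7 of the 9 genes that could be tested had lower RNA in each of the 3 KD groups than in Parental, with the lowest levels in ORP5/8 KD. All 7 were called lower, where 24.3% of all tested genes were in ORP5/8 KD, 20.2% in ATP11A/C KD, with 26.1% in CDC50A KD. Trim30c and Trim30d needed the other groups to pass the low-count filter, so their calls in ORP5/8 KD test nothing further. In bulk RNA, fewer cells with a transcript and less of it per cell cannot be told apart. Trim30a, the Trim30 gene with nearly all of that family's counts, stood at 17.6% of its Parental mean in ORP5/8 KD, 44.3% in ATP11A/C KD, with 63.3% in CDC50A KD. Trim25, the member with the most RNA per length, fell least. Trim30b had too few counts to be tested, and Trim12a had none in any library. The comparisons with Parental share its 4 libraries, so they are not independent of each other.

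Sequences are shown first because most of these genes carry a match to the interferon-stimulated response element next to their start. RefSeq (GRCm38.p6) gave windows of 250 bases before to 50 bases after the gene start for all 9 genes, with 2 start sites for Trim30a. The motif searched was GAAA, any 2 bases, then GAAA, on either strand, so that on the opposite strand it reads TTTC, any 2 bases, then TTTC. It was found in 7 of the 10 windows and in 6 of the 9 genes, and in 3.44% of all 32851 windows of that length. Of the windows of other TRIM genes, 3 of 57 held it (5.26%), namely those of Trim2, Trim26 and Trim5. Of 17 windows of 14 interferon signalling genes, a list described below, 2 held it (11.8%), those of Socs1 and Stat2. The members' windows are not independent of each other, since copies share sites, as printed below. No match was found in the windows of Trim25, Trim30b and Trim30c. The RefSeq window of Trim30b (chr7:104358597-104358896, minus strand) lies inside the gene as annotated by GENCODE (104355382 to 104369884). It does not cover the GENCODE start of Trim30b, whose sequence was not searched. With a shorter motif (GAAA, any 2 bases, then GAA), Trim25 was added, giving 7 genes, and the share of all windows was 8.56%. A match describes letters in a window and is neither a tested binding site nor a cause, and its absence says only that these letters are not in this window.

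The 30 bases around each match are printed 5′ to 3′ on the strand of the gene, with the matching bases in capitals, so that the sites can be compared. All printed bases are those of the reference genome and were not read from these cells. Trim30a (first start, chr7:104465210-104465239, minus strand) and Trim30d (chr7:104507871-104507900, minus strand) held the same 30 bases. In both, the match lies shortly before the start, 36 bases before it in Trim30a and 41 bases before it in Trim30d. The second Trim30a start (chr7:104446104-104446133, minus strand) carries the same 10 capital bases 2 bases after that start. Trim12a (chr7:104315466-104315495) and Trim12c (chr7:104353359-104353388), both on the minus strand, share the capital bases too. Trim21 (chr7:102565447-102565476, minus strand) has a pair of overlapping matches that together cover 16 bases. Trim34a lies on the plus strand (chr7:104244457-104244486).
Trim30a: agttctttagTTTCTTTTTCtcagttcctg
Trim30a, second start: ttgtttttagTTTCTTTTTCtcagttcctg
Trim30d: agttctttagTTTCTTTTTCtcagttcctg
Trim12a: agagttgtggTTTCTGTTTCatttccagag
Trim12c: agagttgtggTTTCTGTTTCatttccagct
Trim21: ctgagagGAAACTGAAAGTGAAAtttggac
Trim34a: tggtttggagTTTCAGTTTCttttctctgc

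Trim30c has no match, but its window holds a stretch that resembles the Trim30a site. The best ungapped alignment of the 30 Trim30a bases (chr7:104400896-104400925, minus strand) differs at 5 positions. Its first base lies 147 bases before the RefSeq start of Trim30c, whereas the distances given above run to the first capital base. The GENCODE start of Trim30c (104400837) lies nearer to this stretch. Counted from 1 at the 5′ end, with the Trim30a base first, the differences are T7G, A9G, T13C, T29A and G30C. Of these, T13C falls within the capitals of the Trim30a site.
Trim30c: agttctgtggttcctttttctcagttccac
The 250 bases before the first Trim30a start (chr7:104465194-104465443, minus strand) are given whole, since Trim30a is the most expressed gene of the chromosome 7 cluster.
Trim30a, upstream: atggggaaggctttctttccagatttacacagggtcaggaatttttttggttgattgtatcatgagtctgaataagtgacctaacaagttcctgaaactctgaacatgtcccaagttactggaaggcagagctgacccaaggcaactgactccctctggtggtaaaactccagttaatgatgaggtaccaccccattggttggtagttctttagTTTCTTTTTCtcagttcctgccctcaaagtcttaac

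By the GENCODE annotation of GRCm38 (mm10), 7 of the genes lie within 263.4 kb of chromosome 7, from 104244457 to 104507849, in the order Trim34a, Trim12a, Trim12c, Trim30b, Trim30c, Trim30a and Trim30d. Trim34a is on the plus strand and the other 6 are on the minus strand. Trim21 lies 1.68 Mb away on the same chromosome and Trim25 lies on chromosome 11. Copies in the cluster resemble each other, so the share of 100-base transcript windows that also occur in another gene was counted. It was 21% for Trim34a, all with its neighbour Trim34b, 8.05% for Trim12c, 2.87% for Trim12a, 4.41% for Trim30a and 4.57% for Trim30d. It was 0 for Trim30b, Trim30c, Trim21 and Trim25. Reads from shared windows can be split between copies by RSEM, the program that made the deposited expected counts, so the values of Trim34a and Trim34b are the least certain. Counts were also summed before the test over the Trim30 genes, over Trim12a with Trim12c, and over Trim34a with Trim34b. Log2 fold changes against Parental follow for ORP5/8 KD, then ATP11A/C KD, then CDC50A KD. They were -2.53, -1.18 and -0.67 for Trim30, -1.31, -0.74 and -0.64 for Trim12 and -1.97, -0.89 and -1.05 for Trim34. Trim12a had 0 counts, so the Trim12 sum is Trim12c alone. Most shared windows of Trim12c were with Trim5, which was not summed. Trim30a held nearly all counts of the Trim30 sum, so the sums of Trim30 and Trim12 say little about reads split between copies.

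Levels are in counts-per-million (CPM), after scaling of the libraries by the trimmed mean of M values (TMM). Changes are log2 fold changes, KD over Parental, ± standard error from the quasi-likelihood test of edgeR. Benjamini-Hochberg adjustment of the p-values covered all 13107 tested genes of a comparison, and a gene is said to be called at an adjusted p under 0.05. Total counts per library ran from 24020891 to 41543050. Mitochondrial genes held 1.36% to 1.78% of the counts in KD libraries and 1.08% to 1.26% in Parental libraries. Of 8 macrophage markers, all of which were detected in every group, the summed level was 3280 to 3490 CPM in ORP5/8 KD, 3530 to 3990 in ATP11A/C KD and 4350 to 4550 in CDC50A KD, against 4370 to 4660 in Parental. Of the 7 tested macrophage markers, 6 were called lower and 1 higher in ORP5/8 KD, 5 and 1 in ATP11A/C KD, and 3 and 2 in CDC50A KD. Markers of T, B and NK cells, fibroblasts, epithelium, and neutrophils and mast cells summed to at most 0.526 CPM in any library, with Cd3e, Pdgfra, Epcam and Ly6g at 0 throughout. The 4 dendritic cell markers summed to 1.62 to 3.81 CPM, with Flt3 at 0. The part of the mitochondrial share and of the macrophage markers in the results below was not tested.

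The targeted genes serve as a check of the labels. Osbpl8 was lower than in Parental in ORP5/8 KD (log2 fold change -1.77), but also in ATP11A/C KD (-1.41) and CDC50A KD (-1.54). Osbpl5 had 28 counts summed over ORP5/8 KD against 18 over Parental and was not tested. Atp11a was lower in ATP11A/C KD (-1.52), and by less in ORP5/8 KD (-0.21) and CDC50A KD (-0.51). Tmem30a was lower in CDC50A KD (-0.35), in ORP5/8 KD (-0.31) and in ATP11A/C KD (-0.19). Each of these differences was called, with an adjusted p of at most 0.0196. The groups are therefore named as labelled, and a difference between them cannot be tied to 1 targeted gene.

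**Figure D1:**
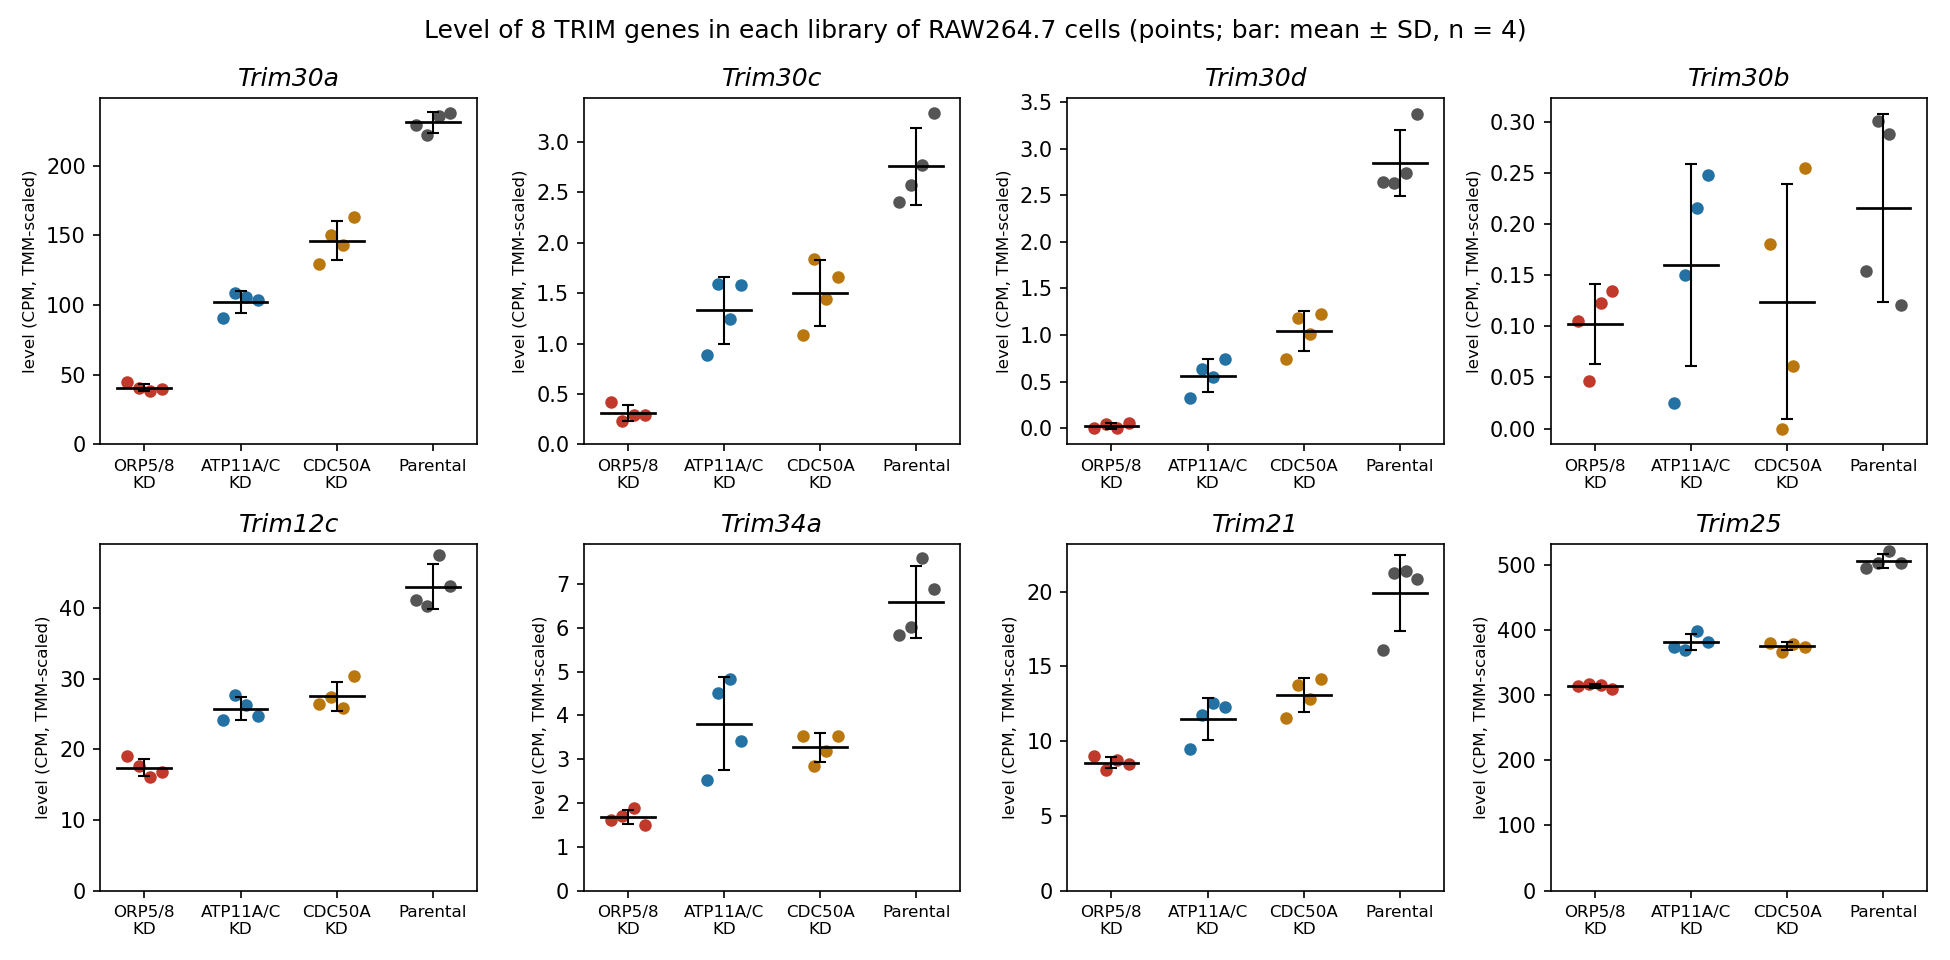
Level of 8 of the 9 TRIM genes (CPM, linear axis, a scale of its own per gene) in each library, with groups from left to right ORP5/8 KD, ATP11A/C KD, CDC50A KD and Parental. Points are libraries and bars are the mean ± SD of 4. In the 7 tested genes every KD library lies below every Parental library. Trim12a, at 0 throughout, is not drawn.

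The Trim30 genes showed the widest range of changes. Trim30a (ENSMUSG00000030921.17; chromosome 7, 104409025 to 104465193) encodes a regulator known in mouse macrophages to restrain NF-κB signalling from Toll-like receptors by promoting loss of the adaptors TAB2 and TAB3. Its level was 44.5, 40.2, 38.5 and 39.7 CPM in ORP5/8 KD 1 to 4, 91.1, 109, 106 and 104 CPM in ATP11A/C KD 1 to 4 and 129, 150.1, 143 and 163 CPM in CDC50A KD 1 to 4, against 229, 222, 236 and 238 CPM in Parental 1 to 4. The 4 groups did not overlap anywhere, with ORP5/8 KD lowest, then ATP11A/C KD, then CDC50A KD, and Parental highest. The log2 fold change was -2.51 ± 0.0679 (adjusted p = 1.47e-17) in ORP5/8 KD, -1.18 ± 0.0643 (adjusted p = 4.24e-12) in ATP11A/C KD, with -0.66 ± 0.0636 (adjusted p = 3.23e-08) in CDC50A KD. Trim30a held 98.9% of the counts of the 4 Trim30 genes in ORP5/8 KD, 98.1% in ATP11A/C KD, 98.2% in CDC50A KD, and 97.6% in Parental.

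Trim30d (ENSMUSG00000057596.13; 104470014 to 104507849), a paralogue of Trim30a at the end of the cluster, was close to undetected in ORP5/8 KD. It stood at 0, 0.0467, 0 and 0.0537 CPM in ORP5/8 KD 1 to 4, 0.322, 0.631, 0.552 and 0.744 CPM in ATP11A/C KD 1 to 4 and 0.747, 1.18, 1.01 and 1.22 CPM in CDC50A KD 1 to 4, against 2.65, 2.63, 2.74 and 3.38 CPM in Parental 1 to 4. Over the 4 ORP5/8 KD libraries it had 4 counts in all, with none in libraries 1 and 3, against 370 in Parental. It had 81 counts in ATP11A/C KD, and 137 were found in CDC50A KD, again without overlap between any 2 groups. The log2 fold change was -6.63 ± 0.412 (adjusted p = 1.73e-11) in ORP5/8 KD, -2.35 ± 0.258 (adjusted p = 2.47e-07) in ATP11A/C KD, with -1.46 ± 0.242 (adjusted p = 4.16e-05) in CDC50A KD. The value for ORP5/8 KD rests on those 4 counts, and Trim30d passed the low-count filter through the other groups only. Trim30d overlaps the predicted gene Gm16464 on the same strand, whose log2 fold changes of -0.17, -0.40 and -0.34 in ORP5/8 KD, then ATP11A/C KD, then CDC50A KD were not called.

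Trim30c (ENSMUSG00000078616.2; 104382065 to 104400837), the only Trim30 gene with a single annotated transcript, showed the same order at a low level. It stood at 0.421, 0.233, 0.295 and 0.295 CPM in ORP5/8 KD 1 to 4, 0.890, 1.59, 1.25 and 1.58 CPM in ATP11A/C KD 1 to 4 and 1.08, 1.84, 1.44 and 1.66 CPM in CDC50A KD 1 to 4, against 2.40, 2.57, 2.78 and 3.28 CPM in Parental 1 to 4. All KD libraries lay below all Parental libraries and ORP5/8 KD lay below the other KD groups, while ATP11A/C KD and CDC50A KD overlapped. Its log2 fold change was -3.14 ± 0.245 (adjusted p = 7.67e-10) in ORP5/8 KD, -1.06 ± 0.205 (adjusted p = 0.000297) in ATP11A/C KD, with -0.89 ± 0.205 (adjusted p = 0.00111) in CDC50A KD. In 1 ORP5/8 KD library Trim30c was under the low-count filter, so 15 of 16 libraries were over it.

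Trim30b (ENSMUSG00000052749.9; 104355382 to 104369884) had 0 to 11 counts per library and 86 in all, too few for the filter. It stood at 0.105, 0.0467, 0.123 and 0.134 CPM in ORP5/8 KD 1 to 4, 0.0247, 0.150, 0.216 and 0.248 CPM in ATP11A/C KD 1 to 4 and 0.180, 0, 0.0613 and 0.255 CPM in CDC50A KD 1 to 4, against 0.154, 0.301, 0.288 and 0.120 CPM in Parental 1 to 4. Every KD group overlapped Parental. A 2-sided exact permutation test on the means, not adjusted, gave p = 0.0857 for ORP5/8 KD, 0.429 for ATP11A/C KD and 0.257 for CDC50A KD, where 4 against 4 libraries allow no p below 0.0286. No change of Trim30b was detected with these counts.

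Trim12c and Trim34a lie on the other side of the cluster, next to genes of the TRIM5 type that restrict retroviruses. Trim12c (ENSMUSG00000057143.15; 104338754 to 104353362), a mouse relative of TRIM5, is known to promote signalling through TRAF6 toward NF-κB and interferon. Its level was 19.0, 17.7, 16.1 and 16.8 CPM in ORP5/8 KD 1 to 4, 24.1, 27.7, 26.3 and 24.7 CPM in ATP11A/C KD 1 to 4 and 26.4, 27.4, 25.8 and 30.4 CPM in CDC50A KD 1 to 4, against 41.2, 40.4, 47.5 and 43.2 CPM in Parental 1 to 4. ORP5/8 KD was lowest and Parental highest, and the libraries of ATP11A/C KD and CDC50A KD overlapped. It overlaps the predicted gene Gm27995 on the same strand. The log2 fold change was -1.30 ± 0.0694 (adjusted p = 1.19e-12) in ORP5/8 KD, -0.74 ± 0.0679 (adjusted p = 1.58e-08) in ATP11A/C KD, with -0.64 ± 0.068 (adjusted p = 1.27e-07) in CDC50A KD.

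Trim34a (ENSMUSG00000056144.14; 104244457 to 104262234) is a mouse counterpart of human TRIM34, which acts with TRIM5 against some lentiviral capsids in human cells. It stood at 1.60, 1.70, 1.89 and 1.5 CPM in ORP5/8 KD 1 to 4, 2.52, 4.51, 4.83 and 3.41 CPM in ATP11A/C KD 1 to 4 and 3.53, 2.85, 3.19 and 3.54 CPM in CDC50A KD 1 to 4, against 5.85, 6.02, 7.61 and 6.90 CPM in Parental 1 to 4. Its order differed from that of the Trim30 genes in that the CDC50A KD mean was below that of ATP11A/C KD, but these 2 groups overlapped. All KD libraries were below all Parental libraries, and the log2 fold change was -1.97 ± 0.167 (adjusted p = 2.9e-09) in ORP5/8 KD, -0.79 ± 0.154 (adjusted p = 0.00037) in ATP11A/C KD, with -1.0 ± 0.158 (adjusted p = 2.49e-05) in CDC50A KD. Trim34b, which shares 30.5% of its windows with Trim34a, had log2 fold changes of -1.97 (SE 0.2), -1.05 (SE 0.188) and -1.13 (SE 0.191) in ORP5/8 KD, then ATP11A/C KD, then CDC50A KD.

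Trim12a (ENSMUSG00000066258.13; 104299894 to 104315466), also a TRIM5 relative, had 0 counts in all 16 libraries, which allows up to 3 counts per library at this depth. Its window holds the same capital bases as that of Trim12c, shown above.

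Trim21 (ENSMUSG00000030966.13; chromosome 7, 102557921 to 102565486) encodes a cytosolic antibody receptor and ubiquitin ligase that binds the Fc part of antibody on viruses that have entered the cell. Its level was 8.99, 8.10, 8.72 and 8.46 CPM in ORP5/8 KD 1 to 4, 9.45, 11.7, 12.6 and 12.3 CPM in ATP11A/C KD 1 to 4 and 11.6, 13.8, 12.8 and 14.2 CPM in CDC50A KD 1 to 4, against 16.1, 21.3, 21.4 and 20.9 CPM in Parental 1 to 4. The ORP5/8 KD libraries lay below all others, ATP11A/C KD and CDC50A KD overlapped, and Parental was highest although Parental 1 lay apart from the other 3. The log2 fold change was -1.22 ± 0.0996 (adjusted p = 1.65e-09) in ORP5/8 KD, -0.79 ± 0.0979 (adjusted p = 1.28e-06) in ATP11A/C KD, with -0.61 ± 0.0978 (adjusted p = 2.98e-05) in CDC50A KD.

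Trim25 (ENSMUSG00000000275.16; chromosome 11, 88999376 to 89020293, plus strand) encodes a ubiquitin and ISG15 ligase that acts on the RNA sensor RIG-I. It stood at 315, 316, 316 and 309 CPM in ORP5/8 KD 1 to 4, 375, 369.5, 398 and 382 CPM in ATP11A/C KD 1 to 4 and 380.2, 367, 379 and 374 CPM in CDC50A KD 1 to 4, against 495, 503, 521 and 504 CPM in Parental 1 to 4. It had the narrowest spread within groups relative to its level and the smallest changes of the 7 tested genes, which were still without overlap between any KD group and Parental. Relative to the Parental mean, its level was 62.1% in ORP5/8 KD, 75.4% in ATP11A/C KD, with 74.2% in CDC50A KD. The log2 fold change was -0.69 ± 0.0353 (adjusted p = 6.61e-13) in ORP5/8 KD, -0.41 ± 0.0352 (adjusted p = 6.4e-09) in ATP11A/C KD, with -0.43 ± 0.0352 (adjusted p = 2.62e-09) in CDC50A KD.

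Per kilobase of exon, Trim25 had the highest level, followed by Trim30a. In ORP5/8 KD, Trim25 had 54.6 ± 0.632 CPM per kb, Trim30a 9.91 ± 0.637 and Trim12c 4.66 ± 0.33 (SD, n = 4 each). Trim25 and Trim30a stood at 87.9 ± 1.92 and 56.3 ± 1.79 CPM per kb in Parental. In Parental these were followed by Trim12c at 11.5 ± 0.853, Trim21 at 5.36 ± 0.685, Trim34a at 2.54 ± 0.316 and Trim30c at 1.61 ± 0.223 CPM per kb. Trim30d stood at 0.758 ± 0.0945 and Trim30b at 0.0287 ± 0.0122 CPM per kb in Parental. No neighbours in this Parental order overlapped in their libraries.

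Beside all genes tested, the counts read as follows. In ORP5/8 KD against Parental, 7 of 7 tested members were called lower, as they were in ATP11A/C KD and CDC50A KD. Over all genes the balance of lower and higher calls turned with the scaling in ORP5/8 KD, with 3181 lower and 2878 higher by TMM but 2479 lower and 4270 higher by upper-quartile scaling. It turned in ATP11A/C KD too, with 2650 lower and 2276 higher by TMM but 2424 lower and 2786 higher by upper-quartile scaling. By both scalings 7 of 7 members were lower in each KD group. The libraries did not overlap for 7 of 7 members in each comparison, where 23.5%, 19% and 24.8% of tested genes were lower without overlap in ORP5/8 KD, then ATP11A/C KD, then CDC50A KD. The members' median log2 fold change was -1.97, -0.79 and -0.66 in these groups, against 0.02, 0.01 and -0.01 over all tested genes. Of the 9 members, 2 were not tested, and Trim30d, which passed the filter only where it was high, had to differ in ORP5/8 KD. Trim30c had 3 ORP5/8 KD libraries over the filter and also needed the other groups to pass. These counts therefore describe the genes and test nothing further.

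**Figure D2:**
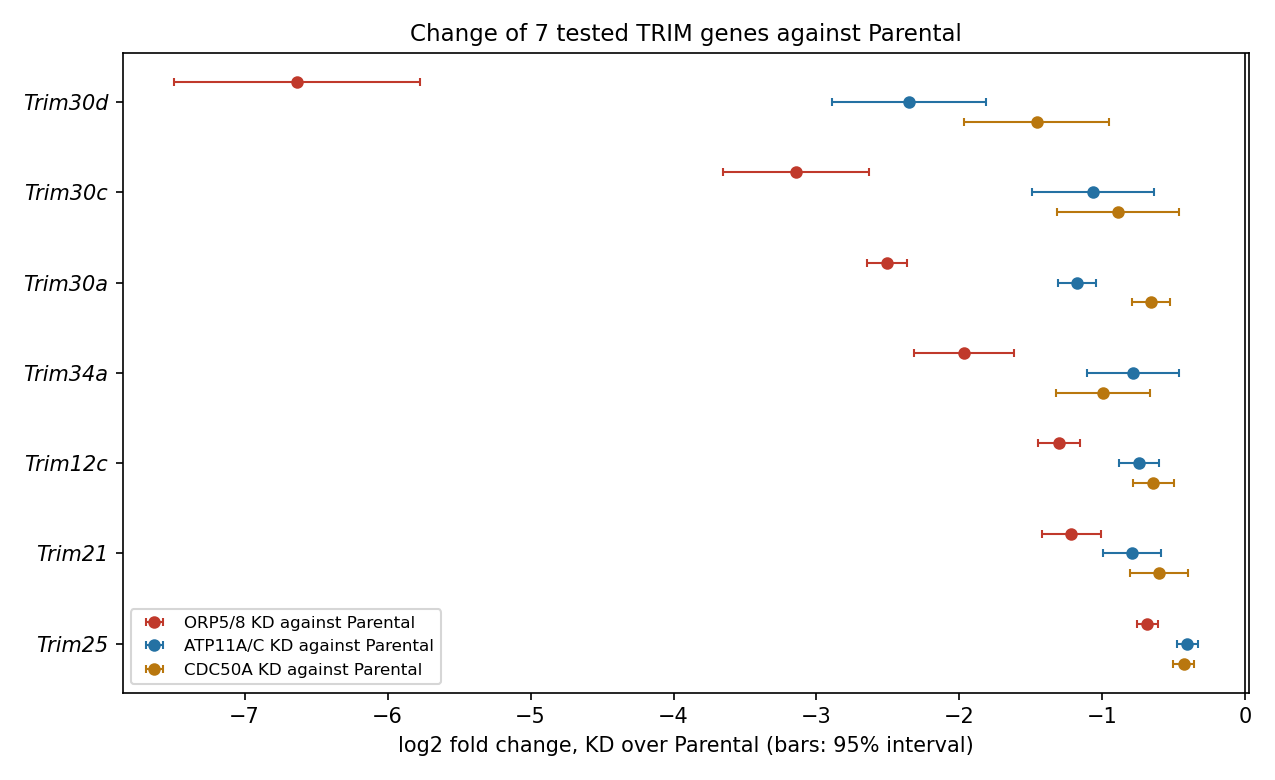
Log2 fold change of the 7 tested TRIM genes, each KD group over Parental, from edgeR (points) with 95% intervals (bars), and a line at 0. All 21 points lie below 0, from -6.63 for Trim30d in ORP5/8 KD to -0.41 for Trim25 in ATP11A/C KD.

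The KD groups were then compared with each other, in the same fit. ORP5/8 KD was lower than both of the other KD groups in all 7 tested genes. Trim30d is among these 7, had 4 counts in ORP5/8 KD, and passed the low-count filter through the other groups only. Trim30c had 3 ORP5/8 KD libraries over that filter, so it too needed the other groups to pass. The low place of Trim30c and Trim30d in ORP5/8 KD here therefore describes the genes and tests nothing further. Against ATP11A/C KD, 7 of 7 were called lower, beside 20.4% of all tested genes, with a median log2 fold change of -1.18. The difference was -1.33 ± 0.0666 (adjusted p = 1.38e-12) for Trim30a, -4.28 ± 0.51 (adjusted p = 7.83e-07) for Trim30d and -2.08 ± 0.258 (adjusted p = 1.38e-06) for Trim30c. It was -1.18 ± 0.171 (adjusted p = 1.04e-05) for Trim34a, -0.56 ± 0.07 (adjusted p = 1.44e-06) for Trim12c, -0.42 ± 0.101 (adjusted p = 0.00209) for Trim21 and -0.28 ± 0.0352 (adjusted p = 1.69e-06) for Trim25. Against CDC50A KD, 7 of 7 were called lower, beside 29.4%, with a median of -0.97. Trim30a differed by -1.84 ± 0.0671 (adjusted p = 4.17e-15), Trim30d by -5.17 ± 0.466 (adjusted p = 8.3e-09) and Trim30c by -2.25 ± 0.257 (adjusted p = 2.7e-07). The values were -0.97 ± 0.174 (adjusted p = 7.88e-05) for Trim34a, -0.66 ± 0.0702 (adjusted p = 9.61e-08) for Trim12c, -0.61 ± 0.101 (adjusted p = 3.26e-05) for Trim21 and -0.26 ± 0.0352 (adjusted p = 3.28e-06) for Trim25. By upper-quartile scaling all 7 were still lower, while over all genes 2018 were lower and 3095 higher against ATP11A/C KD (2678 and 2392 by TMM), and 2891 lower and 4463 higher against CDC50A KD (3848 and 3603 by TMM). In all 7 genes the ORP5/8 KD libraries lay below both groups without overlap, which held for 17% of all tested genes against ATP11A/C KD and 26.5% against CDC50A KD.

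CDC50A KD and ATP11A/C KD differed in 2 of the 7 genes, both higher in CDC50A KD, where 13.5% of all tested genes were called higher and 12.7% lower. Over all genes that balance turned with the scaling, with 1665 lower and 1763 higher by TMM but 1915 lower and 1446 higher by upper-quartile scaling. Trim30a was higher by 0.52 ± 0.0641 (adjusted p = 1.32e-05) and Trim30d by 0.89 ± 0.279 (adjusted p = 0.0226). In both the libraries did not overlap, as in 11.7% of all tested genes. For Trim30d the gap was narrow, from 0.744 CPM in ATP11A/C KD 4 to 0.747 CPM in CDC50A KD 1. The Trim30d difference was not called when ATP11A/C KD 1 was left out (0.68, adjusted p = 0.0743), ATP11A/C KD 3 (0.89, 0.0592), CDC50A KD 2 (0.83, 0.0602) or CDC50A KD 4 (0.78, 0.0667). The other 5 genes were not called. Their 95% intervals ran from -0.27 to 0.62 for Trim30c, from -0.04 to 0.24 for Trim12c, from -0.02 to 0.40 for Trim21, from -0.10 to 0.05 for Trim25 and from -0.55 to 0.13 for Trim34a, so differences of that size remain possible. Trim34a was called lower in CDC50A KD once ATP11A/C KD 1 was left out (-0.38, adjusted p = 0.0467).

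**Figure D3:**
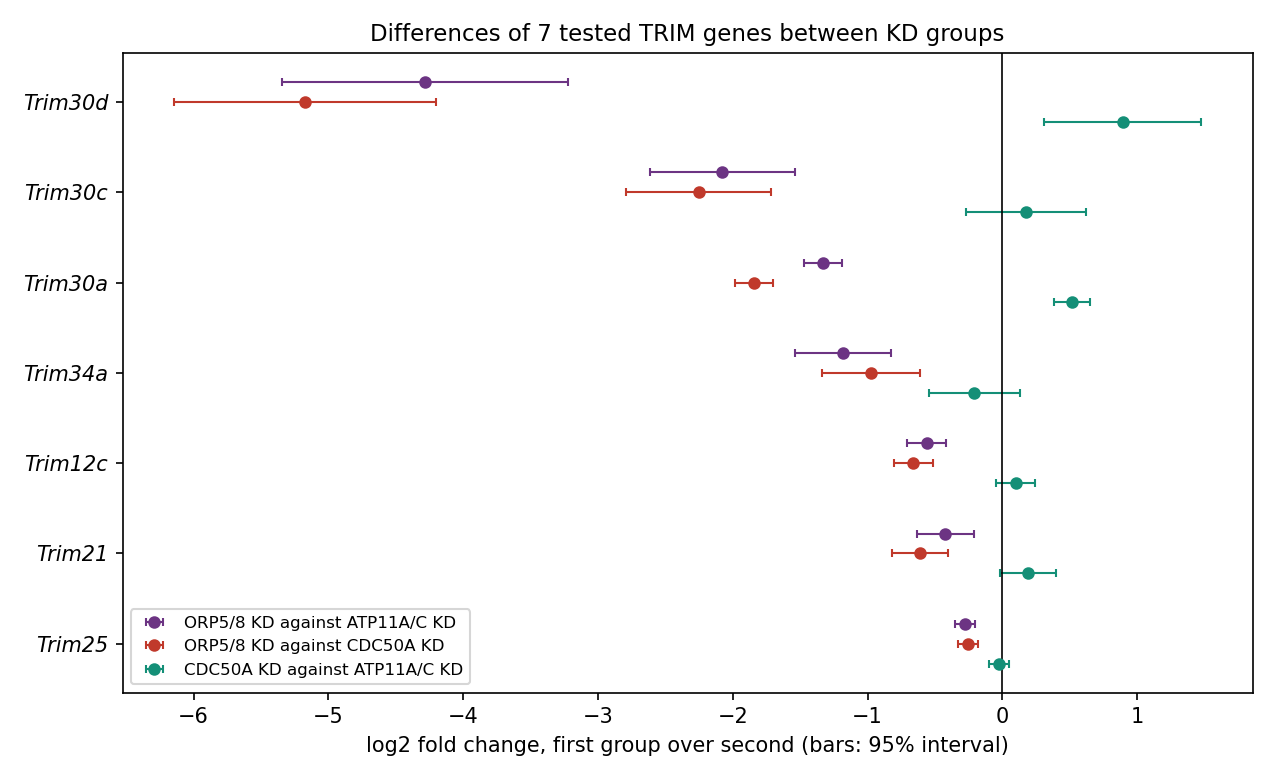
Log2 fold change of the 7 tested TRIM genes between KD groups (points) with 95% intervals (bars), the first named group over the second. ORP5/8 KD lies below 0 in every gene against both other groups, and between CDC50A KD and ATP11A/C KD the intervals of Trim30a and Trim30d lie above 0.

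The other TRIM genes were called in both directions. Of 59, 30 were tested. In ORP5/8 KD, 5 were called lower and 8 higher (median log2 fold change 0.01), where 24.3% of all tested genes were lower and 22% higher. In ATP11A/C KD 9 were lower and 5 higher (median -0.05), where 20.2% of all were lower and 17.4% higher. In CDC50A KD 16 of the 30 were lower and 5 higher (median -0.23), where 26.1% of all were lower and 24.3% higher. In ORP5/8 KD the lowest called were Trim34b (-1.97), Trim14 (-0.73), an adaptor of the MAVS pathway, and Trim26 (-0.42), and the highest were Trim47 (1.02), Trim11 (0.38) and Trim65 (0.34). In ATP11A/C KD the lowest were Trim2 (-1.87), Trim34b (-1.05) and Trim16 (-0.84), and the highest Trim28 (0.30), the KAP1 corepressor, Trim27 (0.30) and Trim39 (0.29). In CDC50A KD the lowest were Trim47 (-1.41), Trim2 (-1.20) and Trim34b (-1.13), and the highest Trim27 (0.46), Trim28 (0.39) and Trim59 (0.22). Trim47 thus stood higher than in Parental in ORP5/8 KD and lower in CDC50A KD, which none of the 7 tested members did.

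Genes of interferon signalling were set beside the members. Of 16 listed, 15 were tested. In ORP5/8 KD 12 were called lower and 2 higher (median log2 fold change -0.52). These numbers were 10 and 2 in ATP11A/C KD (median -0.21), and 8 and 2 in CDC50A KD (median -0.17). Over all tested genes, 24.3% were lower and 22% higher in ORP5/8 KD, and 20.2% and 17.4% in ATP11A/C KD. In CDC50A KD these shares were 26.1% and 24.3%. The called genes named next were picked by small adjusted p, and all are among the lower ones. Irf7, a transcription factor that amplifies interferon production, had log2 fold changes of -3.85, -1.34 and -0.86 in ORP5/8 KD, then ATP11A/C KD, then CDC50A KD. Stat2, a subunit of the interferon-activated complex, had -1.63, -1.29 and -1.15. Usp18, which removes ISG15 and damps the receptor, had -2.22, -0.92 and -0.58. Irf1 had -0.84, -0.61 and -0.69, so its value in CDC50A KD was below that in ATP11A/C KD, unlike in Irf7, Stat2 and Usp18. All these values against Parental are listed in the order of groups given for Irf7, and all were called. Tested directly, CDC50A KD over ATP11A/C KD was not called for Irf1 (-0.08) or Stat2 (0.14). It was called for Irf7 (0.48) and Usp18 (0.34). Ifnb1, the interferon beta gene, was under the filter, with 3 counts summed over ORP5/8 KD, 4 over ATP11A/C KD and 6 over CDC50A KD, against 23 over Parental.

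Known partners and substrates of the TRIM proteins were set beside the same shares of all tested genes. Of 23 listed, 22 were tested, with 8 called lower and 2 higher in ORP5/8 KD (median log2 fold change -0.09), 7 and 3 in ATP11A/C KD (-0.04), and 5 and 5 in CDC50A KD (0.05). Over all tested genes, 24.3% were lower and 22% higher in ORP5/8 KD, 20.2% and 17.4% in ATP11A/C KD, and 26.1% and 24.3% in CDC50A KD, so the CDC50A KD counts of the list are near those of all genes. The number called higher turned on single libraries: 1 in ORP5/8 KD without Parental 1 or without ORP5/8 KD 4, 6 in ATP11A/C KD without ATP11A/C KD 2 and 5 without ATP11A/C KD 3, and 3 in CDC50A KD without CDC50A KD 1 or CDC50A KD 2. In each KD group 12 of the 22 were not called. Tab2 and Tab3, whose products the Trim30a product acts on, were not called in any KD group. The genes named next were picked by small adjusted p. Ddx58, which encodes RIG-I, the sensor that TRIM25 acts on, had log2 fold changes of -2.23, -1.06 and -0.62 in ORP5/8 KD, then ATP11A/C KD, then CDC50A KD. Ube2l6, the conjugating enzyme for ISG15, had -2.62, -1.33 and -0.99, and the kinase gene Ikbke had -1.42, -0.65 and -0.65. Nlrp3, an inflammasome sensor, had -0.82 in ORP5/8 KD, 0.08 in ATP11A/C KD (not called) and a called 0.10 in CDC50A KD (adjusted p = 0.0484). Zc3hav1, an antiviral protein that works with TRIM25, had -0.46 in ORP5/8 KD and -0.29 in ATP11A/C KD, both called, and -0.05 in CDC50A KD, which was not called. Vcp, an ATPase that TRIM21 uses to unfold captured virus, had -0.08 in ORP5/8 KD and 0.07 in ATP11A/C KD, neither called, and 0.33 in CDC50A KD.

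Position on the chromosome was described next, beside the shares of all tested genes called lower and higher. These were 24.3% and 22% in ORP5/8 KD, 20.2% and 17.4% in ATP11A/C KD, and 26.1% and 24.3% in CDC50A KD. Within 500 kb of the chromosome 7 members, 15 genes outside the set were tested of 159 annotated. In ORP5/8 KD 3 of them were called lower and 1 higher, in ATP11A/C KD 2 and 1, and in CDC50A KD 3 and 3, with median log2 fold changes of -0.04, 0.08 and 0.12. Trim34b, in the middle of the cluster, was among the lower ones in all 3. The other tested genes near the cluster had means of only 1.12 to 1.84 CPM in Parental and were not called. The rest lie near Trim21, so the counts and medians say little about genes that flank the cluster. Rrm1, the tested gene nearest to Trim21, had -0.04, -0.02 and 0.14, of which only the value in CDC50A KD was called. Near Trim25, 6 genes were tested of 21, with 2 called lower and 1 higher in ORP5/8 KD, while both other KD groups had 2 lower and 0 higher. Those called lower were Dgke, a diacylglycerol kinase gene (-0.44, -0.39 and -0.56 in ORP5/8 KD, then ATP11A/C KD, then CDC50A KD), and Scpep1 (-0.58, -0.44 and -0.41). Coil, the neighbour closest to Trim25, was not called in any group.

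**Figure D4:**
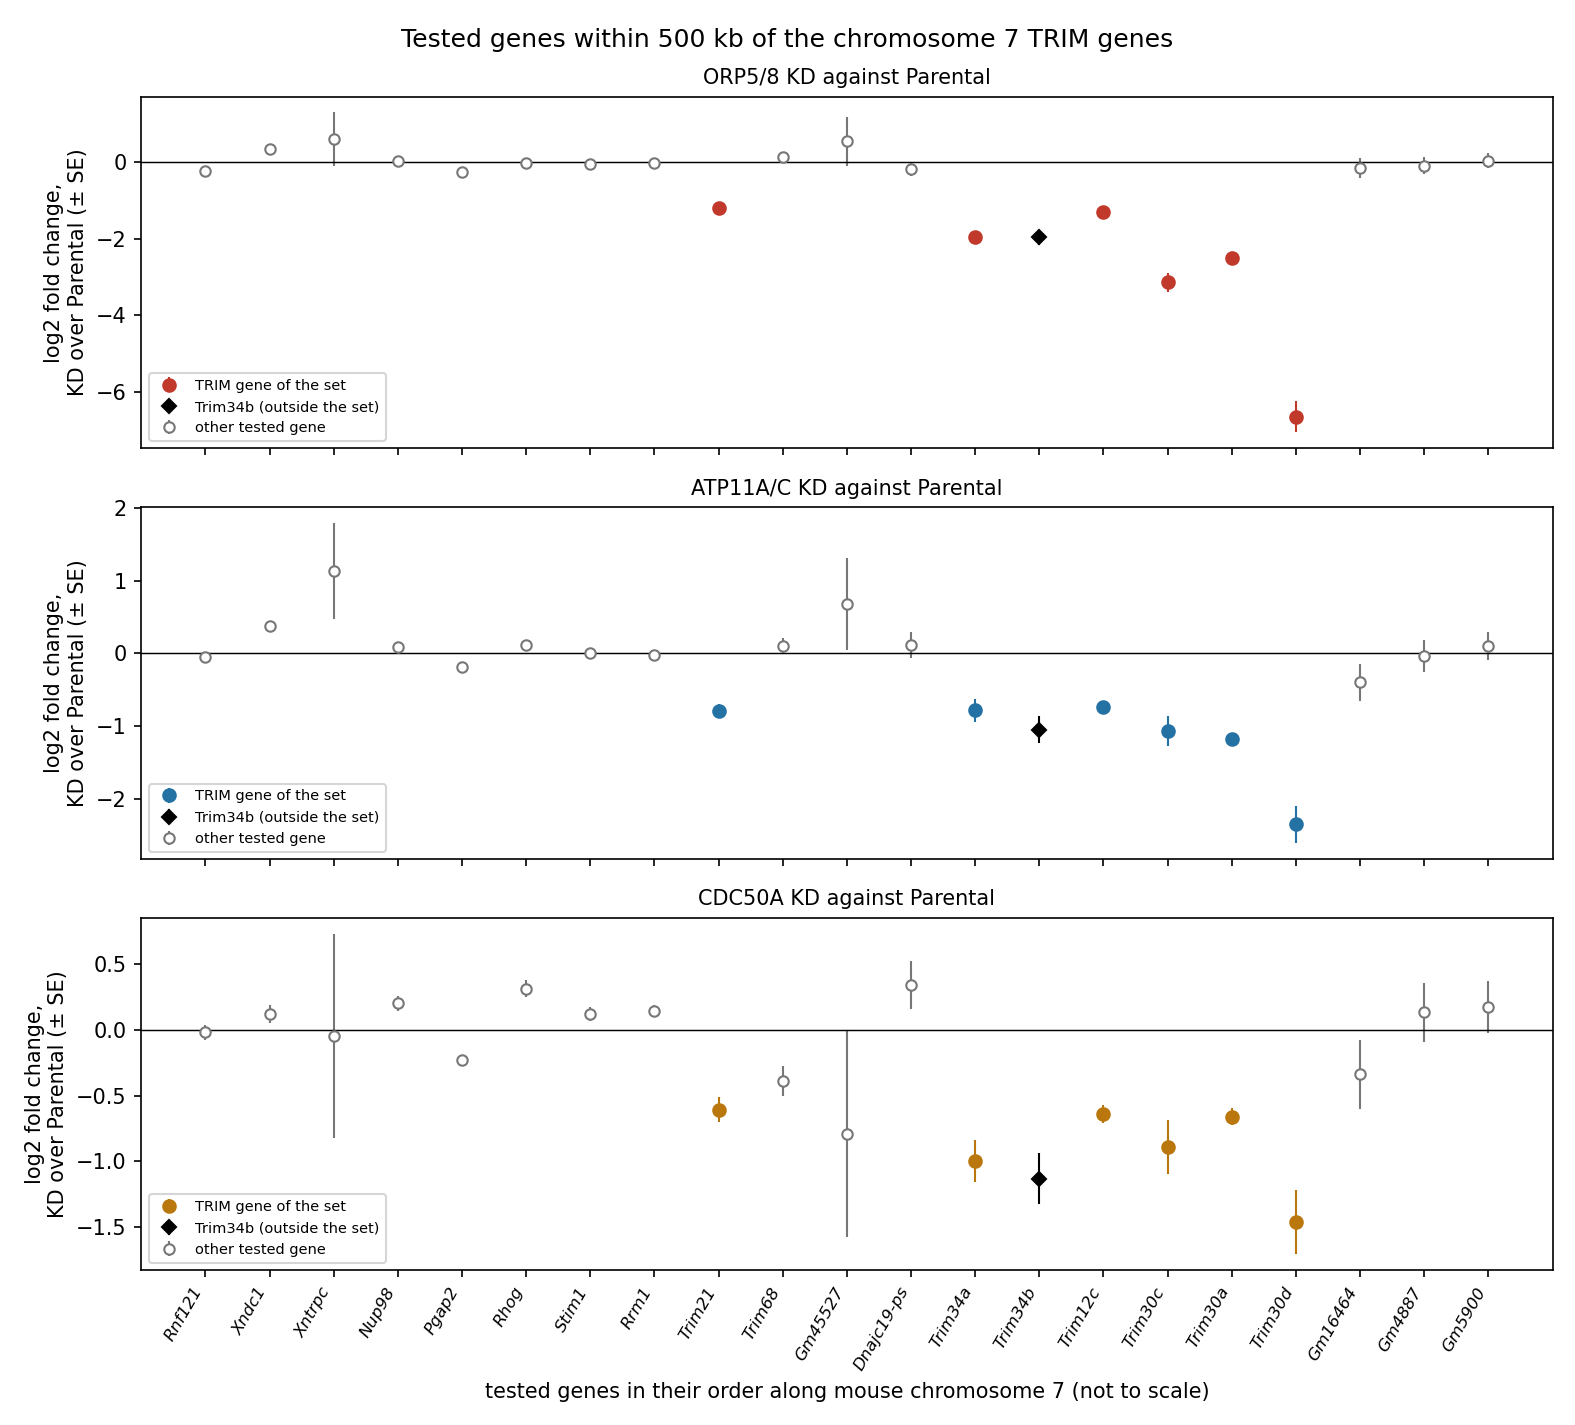
Log2 fold change over Parental (points, ± SE) of tested genes within 500 kb of the chromosome 7 members, in their order along the chromosome and not to scale, for ORP5/8 KD, then ATP11A/C KD, then CDC50A KD from top to bottom, each with its own axis. Filled circles are genes of the set, the diamond is Trim34b and open circles are other genes. The set and Trim34b lie below the other called genes in each panel.

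The genes whose pattern over the 4 group means was closest to each of the 3 most expressed members were found by the root mean square difference of centred log2 CPM among 8596 candidate genes. For Trim30a these were Ifih1 (0.061), an RNA sensor, Ddx58 (0.105) and Oasl1 (0.106), with log2 fold changes in ORP5/8 KD, then ATP11A/C KD, then CDC50A KD of -2.48, -1.21 and -0.80 for Ifih1. For Trim12c they were Pid1 (0.026), Fbxw17 (0.042) and Bst1 (0.042), and for Trim25 the closest were Setdb2 (0.008) and Man2a1 (0.023). These distances describe 4 means and come with no test.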

How the data were processed

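RNA of 16 libraries was made from 500 ng each with a stranded mRNA kit and sequenced as paired reads of 100 bp, per the labels' protocols. Per the submitters' processing notes, Trim Galore 0.5.0, STAR 2.7.5a, Picard, RSEM and mm10 were used. What the authors deposited is a table of expected counts from RSEM for each gene, 4.63% of them with decimals, and these were rounded for testing. Its 92 ERCC spike-in rows sum to 0. Groups follow the labels.

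The low-count filter (filterByExpr, minimum count 10) kept 13107 genes. After TMM scaling, 1 edgeR 4.0.16 quasi-likelihood fit in R 4.3.3 took in all 16 libraries, with 1 term per group. Benjamini-Hochberg adjustment was done separately in 6 comparisons. The biological coefficient of variation was 6.86%. The script was tested on simulated counts. Limits for a count of 0 are 3 counts and cover counting error only. Coordinates came from GENCODE M21 on GRCm38, by gene identifier.

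The 9 members and the gene lists were chosen with earlier results of these data known. Tab2 and Tab3 were named because the Trim30a product acts on theirs. Other genes were named by rule: the 3 highest and 3 lowest called other TRIM genes per group at 1 CPM or more, up to 4 list genes with the smallest adjusted p, the 6 nearest tested neighbours, and the 3 genes of most like pattern. The alternatives tried were upper-quartile scaling, DESeq2 1.42.0 size factors, 1 CPM in 4 libraries as the filter, no filter, a block for the replicate number, the compared groups alone, the DESeq2 Wald test, unrounded counts, summed paralogues and leaving out each library. The results of some genes taken by these rules, 1 targeted gene among them, are not reported here.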

Additional observations from a re-analysis of the deposited data

Results flagged for a closer look

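Among 32 sets of 4 libraries (8 detected genes in 4 groups), 2 had a library set apart by Dixon's test, which by chance flags about 1 set in 20. Trim21 was 16.1 CPM in Parental 1, below the other 3 Parental libraries. Without that library, Trim21 had log2 fold changes against Parental of -1.29 in ORP5/8 KD, -0.87 in ATP11A/C KD, with -0.69 in CDC50A KD, each still called by edgeR. Trim30d was 3.38 CPM in Parental 4, above the other 3. Without it, Trim30d had -6.54 in ORP5/8 KD, -2.26 in ATP11A/C KD, with -1.37 in CDC50A KD, each still called.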

How the results depend on the processing

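Of 1026 values of single members under an alternative, 1021 kept their direction and their side of the threshold, 0 reversed, and the other 5 concern CDC50A KD against ATP11A/C KD, as given with that comparison. The counts against Parental, and those of ORP5/8 KD against the other KD groups, stayed at 7 lower under every alternative run. In CDC50A KD against ATP11A/C KD, leaving out 1 library gave 0 to 1 member lower, 1 to 2 higher, and 1118 to 1873 higher over all genes, against 1763 in full.

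Upper-quartile scaling gave 5 partners higher in ATP11A/C KD against Parental (3 by TMM), and, in ORP5/8 KD against CDC50A KD, 4 other TRIM genes lower (7 by TMM) and 4 interferon signalling genes higher (2 by TMM). The compared groups alone gave, in CDC50A KD against ATP11A/C KD, 1 other TRIM gene higher (3 in the joint fit) and 1 interferon signalling gene lower (2 in the joint fit). The cause was not tested. Leaving out 1 library, the partners called higher numbered 1 to 2 in ORP5/8 KD, 3 to 6 in ATP11A/C KD and 3 to 7 in CDC50A KD against Parental, and 5 to 8 in CDC50A KD against ATP11A/C KD. Interferon signalling genes called higher in ORP5/8 KD against CDC50A KD numbered 2 to 4. In CDC50A KD against ATP11A/C KD, 1 to 4 other TRIM genes were higher and 1 to 2 interferon signalling genes lower.

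The replicate numbers did not pair the libraries: over 24 pairs of same-numbered libraries, deviations from the group means correlated between -0.166 and 0.105, and 13 of 48 correlated best with their own number. With the number as a block, the members called stayed at 7 lower in each comparison with Parental, and over all genes 3138 were lower and 2823 higher in ORP5/8 KD against Parental. Depth limits Trim30b, Trim30d in ORP5/8 KD and Trim12a.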
